A study of Mus musculus with 3 samples.

Results

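The genes described here are 10 readouts and effectors of WNT signalling, namely the 4 TCF and LEF transcription factor genes Tcf7, Lef1, Tcf7l1 and Tcf7l2 and 6 genes known as WNT targets or feedback regulators, Axin2, Nkd1, Apcdd1, Sp5, Ascl2 and Tnfrsf19. They were chosen by name and all 10 were found, each under 1 identifier, among 33762 features of the deposited table. Polyadenylated RNA was read from the caecum, the colon and the presumptive ileum of wild-type Bl6/C57 mouse embryos at E13.5, with 1 sample per tissue, and the ileum was the last of 3 equal portions of the small intestine. Each sample is whole tissue, so fewer cells of a type and less RNA per cell cannot be told apart. No test between tissues was possible with 1 library each. All intervals below are 95% intervals that cover counting error only.

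Canonical WNT signalling acts through beta-catenin, which is degraded by a complex of Axin, Apc and kinases until a WNT ligand stops that complex. Stabilised beta-catenin enters the nucleus and binds TCF and LEF factors, which sit on DNA through an HMG box and otherwise recruit Groucho (Tle) corepressors. Several targets feed back on the pathway, and in the gut the signal is known for regional patterning and for keeping epithelial progenitors.

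The short sequence that TCF and LEF factors prefer has the core CTTTGA, which reads as TCAAAG on the other strand. It was looked for on both strands in RefSeq promoter windows of GRCm38.p6, from 250 bases before to 50 bases after each annotated start. The search covered 15 windows of 9 of the 10 genes. CTTTGA was in 3 of the 15 windows, which belong to Sp5, Lef1 and Tnfrsf19, and in 16.0% of all 32851 windows. The shorter core CTTTG, contained in CTTTGA, was in 9 of the 15 and in 53.9% of all windows, and the longer CTTTGAT was in 2 of the 15 and in 3.73% of all. The 3 windows with a match are shown with those of Axin2 and Nkd1, the abundant feedback genes that were lower in the colon, which had no match. Capitals mark CTTTGA or TCAAAG, and the lines run 5' to 3' on the strand of the gene. A match is a description of these letters and not a bound site.
Sp5: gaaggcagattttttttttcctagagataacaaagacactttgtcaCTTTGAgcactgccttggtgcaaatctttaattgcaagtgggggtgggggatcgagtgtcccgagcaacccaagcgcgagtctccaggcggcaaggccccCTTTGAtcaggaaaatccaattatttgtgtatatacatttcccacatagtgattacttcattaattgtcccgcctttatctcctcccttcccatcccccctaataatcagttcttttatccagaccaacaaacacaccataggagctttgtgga
Lef1, inner start: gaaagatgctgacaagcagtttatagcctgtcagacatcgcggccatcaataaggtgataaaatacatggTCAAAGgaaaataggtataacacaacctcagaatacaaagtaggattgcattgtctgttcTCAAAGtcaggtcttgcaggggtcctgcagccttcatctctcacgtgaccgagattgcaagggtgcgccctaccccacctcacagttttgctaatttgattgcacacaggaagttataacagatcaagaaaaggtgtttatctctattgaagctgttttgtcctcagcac
Tnfrsf19, inner start: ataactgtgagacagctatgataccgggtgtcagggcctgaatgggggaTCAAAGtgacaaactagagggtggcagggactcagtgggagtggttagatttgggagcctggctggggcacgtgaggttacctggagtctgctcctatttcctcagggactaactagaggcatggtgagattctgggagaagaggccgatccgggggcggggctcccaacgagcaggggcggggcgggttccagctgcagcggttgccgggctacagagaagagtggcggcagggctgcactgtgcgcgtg
Axin2: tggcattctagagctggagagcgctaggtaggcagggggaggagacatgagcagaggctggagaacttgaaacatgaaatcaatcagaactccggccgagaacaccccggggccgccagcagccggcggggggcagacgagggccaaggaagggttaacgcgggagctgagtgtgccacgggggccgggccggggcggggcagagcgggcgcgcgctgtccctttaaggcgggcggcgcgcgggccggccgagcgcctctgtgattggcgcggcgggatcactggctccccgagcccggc
Nkd1: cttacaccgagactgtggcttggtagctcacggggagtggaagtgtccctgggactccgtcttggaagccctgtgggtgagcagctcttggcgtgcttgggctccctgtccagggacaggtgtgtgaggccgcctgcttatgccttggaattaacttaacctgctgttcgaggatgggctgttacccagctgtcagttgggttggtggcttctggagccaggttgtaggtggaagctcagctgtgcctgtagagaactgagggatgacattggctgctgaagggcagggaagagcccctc

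The Sp5 window lies at chr2:70474673-70474972 on the plus strand and has its matches 204 and 104 bases before the start. The Lef1 window, at chr3:131156044-131156343 on the plus strand, belongs to a start inside the gene and has matches 180 and 120 bases before it. The Tnfrsf19 window, at chr14:61037938-61038237 on the minus strand, also belongs to an inner start and has 1 match, 201 bases before it. The Axin2 window lies at chr11:108920099-108920398 and the Nkd1 window at chr8:88527383-88527682, both on the plus strand. The table sums reads per gene, so it does not say which start was used.

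Tcf7l1 led the TCF and LEF genes in all 3 libraries. The feedback genes Axin2 and Nkd1 were lower in the colon, at 0.517-fold and 0.561-fold of the ileum. Ascl2 and Lef1, both sparse, were the genes at least 2-fold apart in any pair. Of the 10 genes, 9 had at least 20 counts in the higher library of each pair and could be compared. For caecum over ileum, Lef1 was 1 gene past 2-fold upward, as were 4.59% of all 17827 features compared, and Ascl2 was 1 gene past 2-fold downward, as were 2.52%. Features past 2-fold either way made up 7.11%. For caecum over colon, Ascl2 was 1 gene past 2-fold upward and 0 were past it downward, beside 5.11% and 2.74% of 17900 features, or 7.84% either way. For colon over ileum, 0 genes were past 2-fold upward and 1, Ascl2, was past it downward, beside 4.04% and 4.29% of 17579 features, or 8.33% either way. With 9 genes, a count of 1 is 11.1%, so nothing is read from these shares. The median log2 fold of the 9 genes was -0.03 for caecum over ileum, beside 0.01 over all features compared. It was 0.59 for caecum over colon, beside 0.01, and 0.17 with a minimum of 100 counts. In that pair 8 of the 9 genes were above 1, among them Tcf7l2 at 1.01 (0.973 to 1.06). For colon over ileum the median was -0.24, beside -0.0042, with 6 of the 9 below 1, and -0.42 with a minimum of 100 counts.

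**Figure D1:**
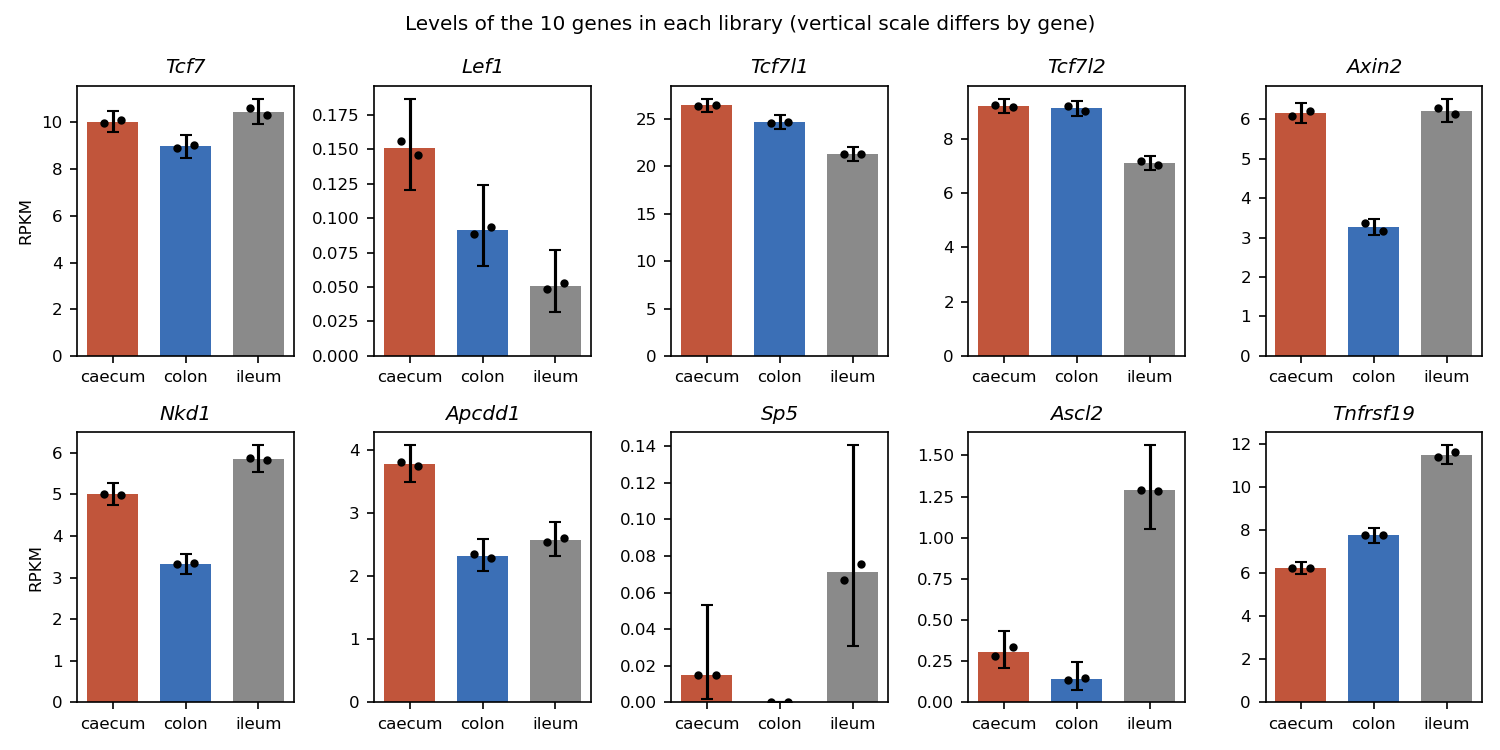
Level of each gene in RPKM (vertical axis, from 0, scale differing by gene) in the caecum, colon and ileum libraries. Bars are the mean of the 2 deposited columns of a tissue, points are those columns, and error bars are the 95% counting interval. Axin2 and Nkd1 are lowest in the colon, Tnfrsf19 and Ascl2 are highest in the ileum, and Lef1, Sp5 and Ascl2 sit below the other genes.

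Tcf7l1, which acts mostly as a repressor of WNT targets in embryonic cells, was the most abundant of the 4 factors per length in every library. The gene spans chromosome 6 of mm9, the build of all gene positions here, from 72576372 to 72739248 on the minus strand. Its level was 26.4 RPKM in the caecum, 24.7 RPKM in the colon and 21.3 RPKM in the ileum, from 5662, 4163 and 3548 counts. RPKM is the authors' count normalised to gene length and to library depth. About 8.02% of all features reached the Tcf7l1 level in the caecum, 8.71% in the colon and 10.2% in the ileum. Folds, which are ratios of counts scaled by TMM, were 1.23 (1.18 to 1.28) for caecum over ileum, 1.08 (1.03 to 1.12) for caecum over colon and 1.14 (1.09 to 1.19) for colon over ileum. All 3 intervals leave out 1 and all lie well within 2-fold. Gm15401, a transcript on the opposite strand that lies within the span of Tcf7l1, had 111, 110 and 64 counts in the caecum, colon and ileum, and its reads were not told apart by strand here.

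Tcf7l2, the factor best known from the adult intestinal epithelium, lies on chromosome 19 from 55816300 to 56008144. It had 9.21 RPKM in the caecum, 9.12 RPKM in the colon and 7.10 RPKM in the ileum, from 5186, 4046 and 3106 counts. The caecum and colon levels did not differ beyond counting error, with a fold of 1.01 (0.973 to 1.06). Both were above the ileum, by 1.28 (1.23 to 1.34) for the caecum and 1.27 (1.21 to 1.33) for the colon.

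Tcf7, which encodes the factor TCF1, ran in another order and was lowest in the colon. Tcf7 spans chromosome 11 from 52065873 to 52096681 and had 10.03 RPKM in the caecum, 8.97 RPKM in the colon and 10.5 RPKM in the ileum, from 1804, 1271 and 1462 counts. Caecum and ileum did not differ beyond counting error, with a fold of 0.949 (0.885 to 1.02). The colon was the lowest, with a fold of 0.845 (0.783 to 0.911) over the ileum, and the caecum stood at 1.12 (1.04 to 1.21) over the colon. Gm16953, which overlaps Tcf7 on the same strand, had 7, 3 and 4 counts.

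Lef1, the remaining factor, was the sparsest of the 4. Lef1 spans chromosome 3 from 130813389 to 130927274 and had 84 counts in the caecum, 40 in the colon and 22 in the ileum, which are 0.151, 0.0910 and 0.0508 RPKM. The caecum over ileum fold was 2.94 (1.82 to 4.93), so the interval reaches below 2-fold. Caecum over colon was 1.66 (1.13 to 2.49) and colon over ileum 1.77 (1.03 to 3.12). Among all features compared, 2.28% had a caecum over ileum fold as high as that of Lef1.

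Lef1 and Tcf7 are also expressed in T lymphocytes, so markers of leukocytes were read beside them. Cd3e, which defines T cells, had 0 counts in all 3 libraries, and Rag1 had 2, 1 and 1 counts in the caecum, colon and ileum. The summed level of the 12 leukocyte and lymphoid markers was 12.5 RPKM in the caecum, 10.9 RPKM in the colon and 10.5 RPKM in the ileum. Another T cell marker, Cd3g, had 8, 1 and 0 counts, and Cd2 had 0, 0 and 2. Of the 8 markers that could be compared for caecum over ileum, 2 were past 2-fold upward and 0 downward. Il7r, a receptor of lymphoid cells, had 40, 6 and 7 counts and Cd4 had 44, 16 and 4, both highest in the caecum as Lef1 was, and their part in the Lef1 difference was not tested.

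**Figure D2:**
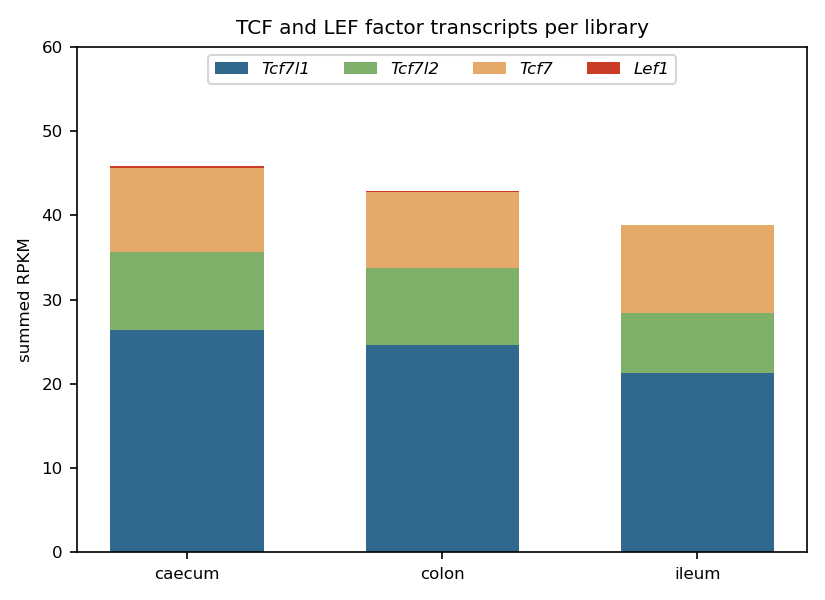
Summed RPKM of the 4 TCF and LEF genes (vertical axis, from 0) in the caecum, colon and ileum libraries, stacked by gene. Tcf7l1 is the largest layer of every bar (57.7%, 57.6% and 54.8%), and Lef1 holds at most 0.329%.

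Per length, the 4 factors summed to 45.8 RPKM in the caecum, 42.9 RPKM in the colon and 38.9 RPKM in the ileum. These shares depend on the gene lengths behind the RPKM, which are unequal. If depth is the column total, they were 3323 bases for Tcf7l1, 2790 for Tcf7, 8740 for Tcf7l2 and 8655 for Lef1. By counts, Tcf7l1 led Tcf7l2 by much less, with 5662 against 5186 in the caecum, 4163 against 4046 in the colon and 3548 against 3106 in the ileum. Tcf7l1 held 57.7%, 57.6% and 54.8% of the sum in the caecum, colon and ileum. Tcf7l2 held 20.1%, 21.3% and 18.2%. Tcf7 held 21.9% in the caecum, 20.9% in the colon and 26.9% in the ileum, so its share was largest in the ileum. Lef1 held 0.329%, 0.212% and 0.130%. The level of Tcf7l1 was 2.64 times that of Tcf7 in the caecum, 2.75 times in the colon and 2.04 times in the ileum.

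Axin2, a scaffold of the beta-catenin destruction complex and a widely used readout of canonical WNT signalling, was lowest in the colon. Axin2 spans chromosome 11 from 108781663 to 108812097 and had 2184 counts in the caecum, 913 in the colon and 1715 in the ileum, which are 6.15, 3.27 and 6.22 RPKM. Caecum and ileum did not differ beyond counting error, with a fold of 0.979 (0.919 to 1.04). The colon over ileum fold was 0.517 (0.477 to 0.561), and the caecum stood at 1.89 (1.75 to 2.05) over the colon. Both intervals reach 2-fold, but the folds themselves fall short of it. Among all features compared, 4.56% had a colon over ileum fold as low as that of Axin2, and 5.72% a caecum over colon fold as high.

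Nkd1, which binds Dishevelled and restrains WNT signalling, had the same order of colon and ileum. Nkd1 spans chromosome 8 from 91045243 to 91118786 and had 1437, 754 and 1307 counts in the caecum, colon and ileum, which are 5.001, 3.33 and 5.85 RPKM. The colon over ileum fold was 0.561 (0.512 to 0.614) and the caecum over colon fold 1.51 (1.38 to 1.65). The caecum over ileum fold of Nkd1 was below 1, at 0.845 (0.784 to 0.912). The level of Axin2 was 1.23 times that of Nkd1 in the caecum, 0.981 times in the colon and 1.06 times in the ileum.

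Apcdd1, a membrane protein that binds WNT and LRP proteins and inhibits the pathway, was highest in the caecum. Apcdd1 spans chromosome 18 from 63081981 to 63112849 and had 682 counts in the caecum, 330 in the colon and 360 in the ileum, which are 3.78, 2.32 and 2.57 RPKM. Colon and ileum did not differ beyond counting error, with a fold of 0.891 (0.765 to 1.04). The caecum was higher than the ileum by 1.46 (1.28 to 1.66) and higher than the colon by 1.63 (1.43 to 1.87). Axin2, Nkd1 and Apcdd1 together summed to 14.9 RPKM in the caecum, 8.91 RPKM in the colon and 14.6 RPKM in the ileum.

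Most genes of the enteric nervous system were lower in the colon library in the same pairs of tissues. Of the 12 markers of enteric neural crest, neurons and glia, 9 were past 2-fold downward for colon over ileum and 0 upward. For caecum over colon 7 were past 2-fold upward and 0 downward, and for caecum over ileum all 12 were within 2-fold. Ret, a receptor of enteric progenitors, went the other way for colon over ileum, at 1.10 (1.07 to 1.14), with 28.7, 23.5 and 20.9 RPKM in the caecum, colon and ileum. Their summed level was 212 RPKM in the caecum, 111 RPKM in the colon and 220 RPKM in the ileum. The gut epithelium markers summed to 294, 320 and 296 RPKM and the mesenchyme markers to 905, 950 and 888 RPKM in the caecum, colon and ileum, with none of either list at 0 counts. Epcam, an epithelial surface protein, had 38.8, 36.3 and 49.99 RPKM. These sums hide genes of unlike order. Cdx2 (epithelium, 18.8, 9.87 and 17.5 RPKM) and Nkx2-3 (mesenchyme, 29.2, 22.4 and 29.6 RPKM) were also lowest in the colon. Cdh1 (epithelium, 21.1, 32.2 and 20.3 RPKM) and Foxf1 (mesenchyme, 75.9, 81.4 and 57.5 RPKM) were highest there. For colon over ileum, 2 of the 17 epithelial markers were past 2-fold upward and 1 downward. All 11 mesenchymal markers were within 2-fold. None of the 12 enteric markers was at 0 in any library, and the part of these cells in the Axin2 and Nkd1 difference was not tested.

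**Figure D3:**
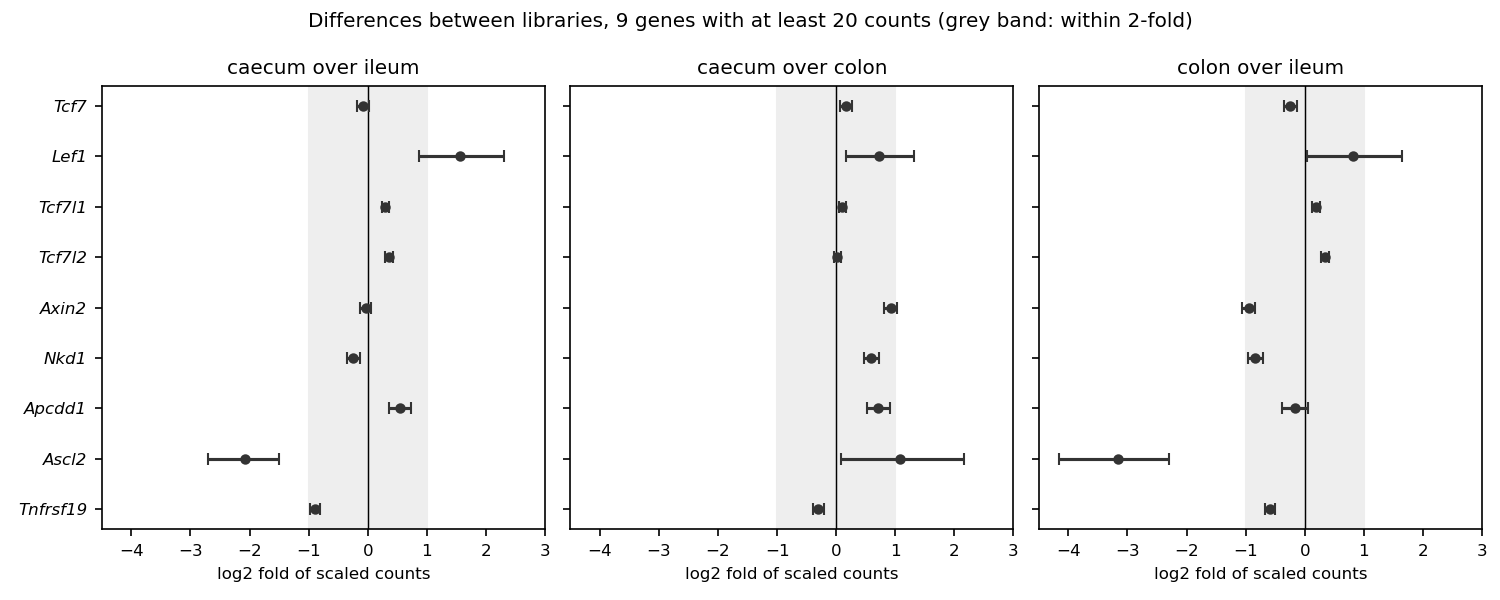
Log2 fold of TMM-scaled counts (horizontal axis) of the 9 genes that could be compared, with 1 panel for each pair of tissues. Points are the folds and bars their 95% counting intervals. The interval of Ascl2 lies wholly beyond 2-fold against the ileum, and those of Axin2 in the colon (0.477 to 0.561 over the ileum) lie at the edge of the 2-fold band.

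Ascl2, a bHLH factor of intestinal stem cells in the adult and a WNT target, had the widest range of the 10 genes apart from Sp5. Ascl2 spans chromosome 7 from 150152727 to 150155169 on the minus strand and had 32 counts in the caecum, 12 in the colon and 104 in the ileum, which are 0.308, 0.141 and 1.29 RPKM. Ascl2 was lower in caecum and colon than in ileum, with a fold of 0.237 (0.154 to 0.355) for the caecum and 0.112 (0.0561 to 0.204) for the colon. Caecum over colon was 2.11 (1.06 to 4.498), an interval that reaches almost to 1. Among all features compared, 0.478% had a colon over ileum fold as low as that of Ascl2, and 0.516% a caecum over ileum fold as low. The level was low throughout, and in the colon 56.4% of all features had at least the RPKM of Ascl2. Of the 17 epithelial markers, 1 was past 2-fold upward and 0 downward for caecum over ileum, 0 and 1 for caecum over colon, and 2 and 1 for colon over ileum. The part of the epithelium in the Ascl2 difference was not tested.

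Tnfrsf19, also called Troy, a receptor of the TNF family found on WNT-responsive progenitors, was likewise highest in the ileum. Tnfrsf19 spans chromosome 14 from 61582671 to 61665692 on the minus strand and had 1996 counts in the caecum, 1951 in the colon and 2853 in the ileum, which are 6.25, 7.75 and 11.5 RPKM. The folds were 0.538 (0.508 to 0.570) for caecum over ileum and 0.665 (0.627 to 0.704) for colon over ileum. The caecum was lower than the colon as well, at 0.809 (0.760 to 0.862), so the colon stood between the other tissues. The other 8 genes compared had caecum over colon folds above 1. The 9 smooth muscle markers had a summed level in the same order of tissues, with 467 RPKM in the caecum, 623 RPKM in the colon and 1153 RPKM in the ileum, and none was at 0 counts. For caecum over ileum 6 of 9 were past 2-fold downward, and for colon over ileum 5 of 9. Not every marker had that order. Des, a muscle intermediate filament, was highest in the caecum, at 12.8, 8.23 and 9.19 RPKM in the caecum, colon and ileum, while Synpo2 had 28.3, 22.4 and 33.8 RPKM and Myh11 38.1, 37.2 and 114 RPKM, both lowest in the colon. Their part in the Tnfrsf19 difference was not tested.

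Sp5, a zinc finger factor induced directly by WNT signalling in many embryonic tissues, was barely counted. Sp5 spans chromosome 2 from 70312980 to 70315786 and had 2 counts in the caecum, 0 in the colon and 8 in the ileum. These are under the minimum of 20 counts, so Sp5 entered no count of genes past 2-fold above. The caecum over ileum fold was 0.192 (0.0199 to 0.963), an interval that is wide and ends just below 1. For colon over ileum the fold was 0.364 with the colon's 0 counts set to the floor of 3, and its interval ran from 0 to 0.569. No fold is given for caecum over colon, where both libraries were at or under 3 counts. Its promoter window, shown above, holds 2 of the CTTTGA matches.

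Features with the profile nearest to that of a gene were looked for among 11695 features with at least 100 counts in every library, by the distance between their log2 folds of caecum and colon over ileum. With 3 libraries such a likeness is weak and is given as a description. The nearest features to Axin2 were Elavl4, Sh3gl3 and Slc18a2, at distances of 0.06, 0.07 and 0.08, and Elavl4 is an RNA binding protein of neurons. Elavl4 had 17.6, 8.81 and 17.5 RPKM in the caecum, colon and ileum and is among the enteric markers counted above. The nearest to Tnfrsf19 were Hprt, Acot6 and mt-Ts2, at 0.03, 0.05 and 0.06. The nearest to Ascl2 was Hoxb8 at 0.30, with 508, 142 and 1449 counts, followed by Thbs4 and Abcb1a at 0.51 and 0.53. No feature came within 0.1 of Ascl2, while 6 did for Axin2 and 10 for Tnfrsf19.

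Partners of the TCF and LEF factors were read from further lists. Ctnnb1, which encodes beta-catenin, had 436 RPKM in the caecum, 398 RPKM in the colon and 386 RPKM in the ileum. Of 25 genes of the destruction complex and signal transduction, 25 could be compared, and 0 were at least 2-fold apart between caecum and ileum. Apc2, a relative of Apc, was the 1 gene past 2-fold upward for caecum over colon, at 2.41 (2.22 to 2.62), and Cxxc4, an inhibitor of Dishevelled, the 1 gene past it for colon over ileum, at 2.52 (2.18 to 2.91). Dact2, an antagonist that binds Dishevelled, had 5.58, 3.63 and 4.76 RPKM in the caecum, colon and ileum.

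All 13 coactivators stayed within 2-fold in all 3 pairs. Pygo1 and Bcl9l, which link beta-catenin to transcription, are named with Med12, a Mediator subunit, as the 3 whose intervals lay farthest from no difference. Pygo1 had 7.87, 5.61 and 5.44 RPKM and Bcl9l 8.12, 6.69 and 6.16 RPKM in the caecum, colon and ileum, while Med12 had 17.8, 16.9 and 14.0 RPKM. Bcl9 and Pygo2 had 19.7 and 19.6 RPKM in the caecum, 17.8 and 19.3 RPKM in the colon and 16.7 and 17.8 RPKM in the ileum. Their median log2 fold was 0.20 for caecum over ileum, 0.08 for caecum over colon and 0.09 for colon over ileum.

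Of 20 genes listed as corepressors or inhibitors, 2 were past 2-fold upward for caecum over ileum and 1 for colon over ileum, with 0 downward in either. For caecum over colon all 20 were within 2-fold. The genes that differed are Groucho family members. Tle6 had 2.17, 3.06 and 0.714 RPKM in the caecum, colon and ileum, with folds over the ileum of 3.01 (2.44 to 3.75) in the caecum and 4.24 (3.44 to 5.27) in the colon. Tle2 had 4.49, 3.17 and 1.92 RPKM, with 2.31 (2.11 to 2.54) for caecum over ileum. Tle4 was highest in the colon, at 16.9, 29.0 and 15.9 RPKM in the caecum, colon and ileum. Tle1 had 6.11, 4.23 and 5.58 RPKM and Tle3 had 22.6, 16.0 and 15.2 RPKM. Tle5, listed in the table as Aes, was the most abundant at 117, 124 and 110 RPKM. Tcf21, which is a bHLH factor of mesenchyme and shares only a name with the TCF family, had 86.7, 45.2 and 71.5 RPKM.

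**Figure D4:**
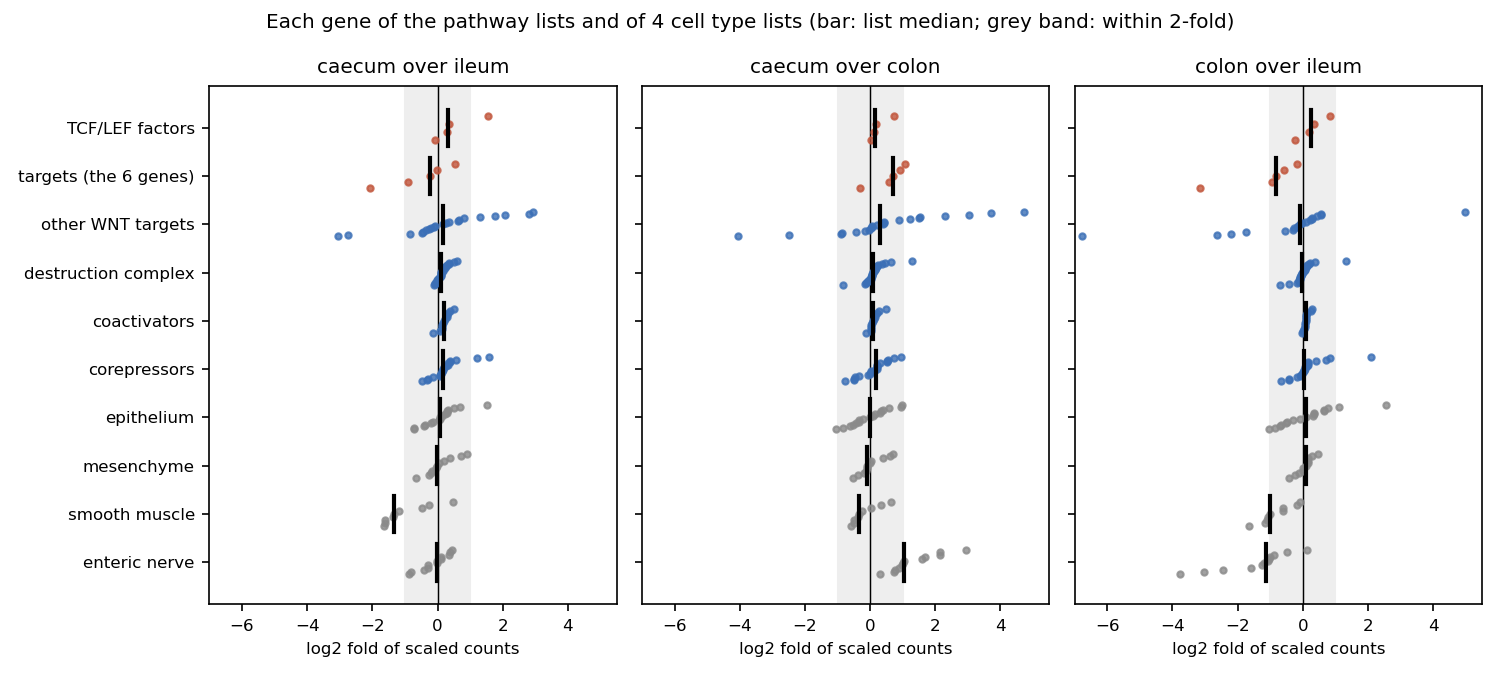
Log2 fold of TMM-scaled counts (horizontal axis) of the genes that could be compared, by list, with 1 panel for each pair of tissues. Shown are the TCF and LEF factors, the targets, further reported targets, destruction complex, coactivators, corepressors, epithelium, mesenchyme, smooth muscle and enteric markers. The other lists are not drawn. Bars mark list medians and the grey band is within 2-fold. The 13 coactivators stay inside the band in all 3 pairs, and the enteric list has a median of -1.14 for colon over ileum.

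A further 25 genes reported as WNT targets were read in the same way. For caecum over ileum 21 could be compared, with 5 past 2-fold upward, 2 downward and a median log2 fold of 0.15. For caecum over colon 22 could be compared, with 7 upward, 2 downward and a median of 0.30. For colon over ileum 19 could be compared, with 1 upward, 4 downward and a median of -0.09.

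Olfm4, a secreted glycoprotein of adult stem cells, had 10, 131 and 4 counts in the caecum, colon and ileum. Lgr5, whose protein marks the same adult stem cells as Ascl2, had 133, 8 and 855 counts, the same order of tissues as Ascl2, and a colon over ileum fold of 0.00909 (0.00391 to 0.018). Notum and Rnf43, which like Axin2 restrain the pathway, were both lowest in the colon. Notum had 124, 12 and 54 counts and Rnf43 1042, 445 and 1438 counts in the caecum, colon and ileum. Rnf43, Ccnd1, Znrf3, Nkd2, Dkk1 and Wif1 were chosen after their values were seen. Ccnd1, a cyclin, had 33.6, 32.5 and 29.8 RPKM, and Znrf3, a close relative of Rnf43, had 3.10, 3.47 and 3.64 RPKM, so neither followed Axin2. Nkd2, a relative of Nkd1, had 1.13, 1.16 and 1.27 RPKM, with a colon over ileum fold of 0.901 (0.763 to 1.06). The secreted antagonists Dkk1 and Wif1 were lowest in the ileum, with 50, 8 and 5 counts and 55, 15 and 6 counts.

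Ligands, receptors and secreted modulators lie upstream of the 10 genes. Of 19 WNT ligands 8 could be compared, with 1 past 2-fold upward for caecum over ileum, 2 upward and 1 downward for caecum over colon, and 0 either way for colon over ileum. Wnt5a, a ligand of gut mesenchyme known mainly for signalling without beta-catenin, had 50.4, 21.8 and 39.0 RPKM in the caecum, colon and ileum, and Wnt16 had 512, 44 and 38 counts. Wnt5b had 10.02, 5.78 and 5.98 RPKM. Of 19 receptors and coreceptors, 1 was past 2-fold upward and 1 downward for caecum over ileum, and 2 upward and 1 downward for caecum over colon. For colon over ileum 18 could be compared, with 1 upward and 2 downward. Fzd10, a receptor listed under 2 overlapping identifiers that may share reads, had 562, 117 and 780 counts and Ror1, a receptor of Wnt5a, 1248, 2133 and 768 counts.

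Rspo1, Rspo2 and Rspo3, whose proteins strengthen WNT signals through Lgr receptors, were the 3 of 4 R-spondin genes that could be compared, with 1 past 2-fold upward and 2 downward for caecum over ileum, 2 upward for caecum over colon and 2 downward for colon over ileum. Rspo3 was lowest in the colon, with 6.16, 2.20 and 13.8 RPKM in the caecum, colon and ileum. Rspo1 had 3.995, 4.77 and 10.4 RPKM, and Rspo2 had 1.998, 0.358 and 0.246 RPKM. Of 15 secreted antagonists 11 could be compared for caecum over ileum, with 3 past 2-fold upward and 2 downward, and the counts were the same for caecum over colon. For colon over ileum 8 could be compared, with 1 upward and 1 downward. Sfrp1, which binds WNT ligands, was lowest in the caecum at 2.92, 69.7 and 38.2 RPKM in the caecum, colon and ileum, and Frzb, a relative, had 97, 342 and 60 counts.

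The libraries held 64439972, 50773032 and 50079916 counts in the caecum, colon and ileum. The labels were set beside 14 markers of the regions, which summed to 119.6, 100.2 and 36.8 RPKM in the caecum, colon and ileum. That list mixes genes of different regions, so its sum checks no label. Not all 14 are named here. Fgf10 was highest in the colon, at 7.29, 15.7 and 0.536 RPKM in the caecum, colon and ileum. Hoxd13 had 13, 2354 and 1 counts, Gata4 had 4, 58 and 702 counts and Hoxd9 had 3422, 234 and 12 counts in the caecum, colon and ileum, and all 17 epithelial and 11 mesenchymal markers were counted in each. Proliferation markers summed to 379, 416 and 433 RPKM, and all 8 were within 2-fold in each pair. Pancreas and liver markers summed to 29.5, 25.9 and 8.16 RPKM, and markers of skin and urothelium to 4.05, 11.7 and 2.65 RPKM. Most of the pancreas and liver sum was Afp, at 23.4, 22.7 and 4.14 RPKM, and Ttr, at 5.88, 2.54 and 3.69 RPKM. Alb had 8, 36 and 6 counts, Pdx1 had 1, 0 and 0, and Ptf1a had 0 in each library. Endothelial markers summed to 59.5, 71.3 and 58.9 RPKM, mesothelial markers to 45.6, 53.3 and 35.3 RPKM and erythroid markers to 2665, 2588 and 2606 RPKM.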

How the data were processed

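RNA was measured in 3 libraries, 1 per tissue, from TruSeq preparations sequenced as paired 100 bp reads, per the labels' protocols. Bowtie 0.12.7, DESeq and mm9 are listed, without a role, per the submitters' processing notes. The counting program, annotation release and use of strand are not given in the sources used here. The deposited table holds expected counts per gene, in steps of 0.5, and RPKM computed by the authors, per the file headers. Each tissue has 2 columns, headed as replicates 1 and 2, from 1 sample. Their mean squared difference was 0.485 to 0.486 times the counting variance, against 33.7 to 50.3 times between tissues, so they differed by less than the sampling noise and were counted as 1 sample. Their mean was rounded to whole counts. What these columns are was not stated. For the genes described here at 100 counts or more, columns differed by 0 to 6.57%.

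Counts were scaled by TMM (edgeR 4.0.16, R 4.3.3). A fold is the ratio of 2 scaled counts, and its 95% interval comes from an exact (Clopper-Pearson) binomial interval on the pair's counts. Features needed 20 counts or more in either library of a pair to be compared and counted as apart at 2-fold. Counts of 0 were set to a floor of 3. Without replicate libraries no test was run. On simulated counts for these features, all 200 altered genes of each comparison were recovered and intervals covered 95.3% to 95.5% of unaltered ones. The altered genes were well counted and changed by far more than 2-fold, and only counting error was simulated. That run therefore checks the calculation, and says nothing about sparse genes or about variation between animals. Intervals cover counting error only.

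The genes and the 10 pathway and 12 marker lists (268 entries, all matched by symbol, 2 of them with 2 identifiers, of which the one carrying the current symbol or, where both did, the higher count was used) were chosen with earlier results of these data known. All 10 genes are named, and of the other pathway lists up to 3 genes, those whose interval bound nearest to no difference was largest, plus Ctnnb1, the Tle genes, Bcl9 and Pygo genes. A gene that this rule names is not reported here. Profile likeness is given for the 3 genes with the widest range among those with at least 100 counts in their highest library, which leaves out Lef1 and Sp5. Starts in the table count from 0 and are given from 1, in mm9. Promoter sequences are RefSeq's of GRCm38.p6, and no mm9 position was converted. Tried as alternatives were DESeq2 1.42.0 size factors, total and upper quartile scaling, deposited RPKM ratios, other minimums and folds, and each column alone.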

Additional observations from a re-analysis of the deposited data

How the results depend on the processing

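No paired analysis was possible because each tissue has 1 sample and no test was run. Folds of single genes among the 10 were recomputed 162 times under other scalings, RPKM ratios and single columns. All 162 stayed within the counting interval and on their side of 2-fold, and 1, Axin2 for caecum over ileum, changed sign, at 1.001-fold with the second column alone against 0.979-fold. The scalings shifted all features by at most 0.02 in log2.

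Features past 2-fold for caecum over ileum numbered 2872 with no count minimum, 707 with 100 counts, 630 with intervals wholly beyond 2-fold and 2737 at 1.5-fold. For caecum over colon these settings gave 3234, 804, 741 and 2768, and for colon over ileum 3183, 810, 769 and 2796. Among the 10 genes, a minimum of 100 counts left 0 past 2-fold upward for caecum over ileum and 0 for caecum over colon, and so did intervals wholly beyond 2-fold. With no minimum Sp5 entered, which made 2 past 2-fold downward for caecum over ileum and 2 for colon over ileum. At 1.5-fold, 2 were downward for caecum over ileum, 5 upward for caecum over colon, and 1 upward and 4 downward for colon over ileum. The share of all features in each direction was not computed at 1.5-fold, so nothing is read from these counts. The median log2 fold for caecum over colon was 0.17 with 100 counts and 0.38 with no minimum, and for colon over ileum -0.42 under both. These settings change which genes are compared or counted. Depth limits Lef1, Ascl2 and Sp5, and the lack of replicate libraries limits every difference.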
